A study of Bos taurus with 6 samples.

Results

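The EGR, NR4A and KLF early-response genes were taken as 10 named genes: the zinc finger factors EGR1, EGR2 and EGR3, the orphan nuclear receptors NR4A1, NR4A2 and NR4A3, the Krüppel-like factors KLF4 and KLF6, and the growth and survival regulators BTG2 and IER3. They were found by symbol in the annotation of the array's probes, where 9 of the 10 had 1 probe each and none carried the symbol EGR2, so EGR2 was not analysed here. Of these 9 probes, 7 passed the filter on dim probes, out of 12334 genes tested, and EGR3 and NR4A3 did not. RNA was compared between superstimulated cows (group 1, the treatment) and non-superstimulated cows (group 4), 3 different animals in each, on 6 arrays with 2 dyes each. In superstimulation, injected gonadotropins let several ovarian follicles mature side by side. All were multiparous beef cows, whose samples were dissected and frozen, and the labels list gonadotropins for both groups; they give no tissue, age, dose or time. Each cow was hybridised against the cow of the same number in the other group, and each pair was repeated with exchanged dyes, so that n was 3 pairs.

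The direction of the ratios is not settled by the labels. By the dye fields of the arrays, Cy5 carried the superstimulated cow on arrays 1 to 3 and Cy3 on arrays 4 to 6, whereas the series' design text gives the opposite dyes for array 1. All values below follow the array fields, as superstimulated over non-superstimulated. With the dyes of the design text every cow would change its group and every ratio its sign, while the sizes would stay as given.

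Early-response genes are switched on within minutes of a stimulus by factors already present in the cell, mainly serum response factor with its ternary complex partners and the cyclic AMP responsive factor CREB, and their transcripts are short-lived. Most encode transcription factors or feedback regulators. In rodent ovaries the surge of luteinizing hormone induces EGR1 and NR4A1 in follicular cells, and NR4A factors act on steroidogenic genes there.

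The median foreground of the probes was 152 to 299 in red (Cy5) and 161 to 283 in green (Cy3). Red exceeded the 95th percentile of the negative control spots for 47.3% to 63.2% of probes and green for 65.4% to 71.2%. Precision over the pairs is limited by the number of cows, 3 in each group. Levels are log2 intensities of the separate channels after normalization, each the mean of a cow's 2 arrays, and were not set against those of another probe.

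The 7 early-response genes that passed the filter had their highest level of the 6 cows in the same animal, superstimulated cow 2. Over all 12334 genes, superstimulated cows 1, 2 and 3 were the highest for 10.7%, 18.5% and 15.4%, and non-superstimulated cows 1, 2 and 3 for 11.8%, 12.3% and 31.3%. Each of the 7 probes was brighter than the negative controls on at least 4 arrays in either group. Superstimulated cow 2 had 9.38-fold the EGR1 level and 7.72-fold the BTG2 level of non-superstimulated cow 2, and its log2 ratio of NR4A1 was 6.28 on array 2 and 4.22 on array 5. In the other 2 pairs the 7 genes had ratios on both sides of 0. In RNA from a dissected sample, more cells of a type and more RNA per cell cannot be told apart.

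**Figure D1:**
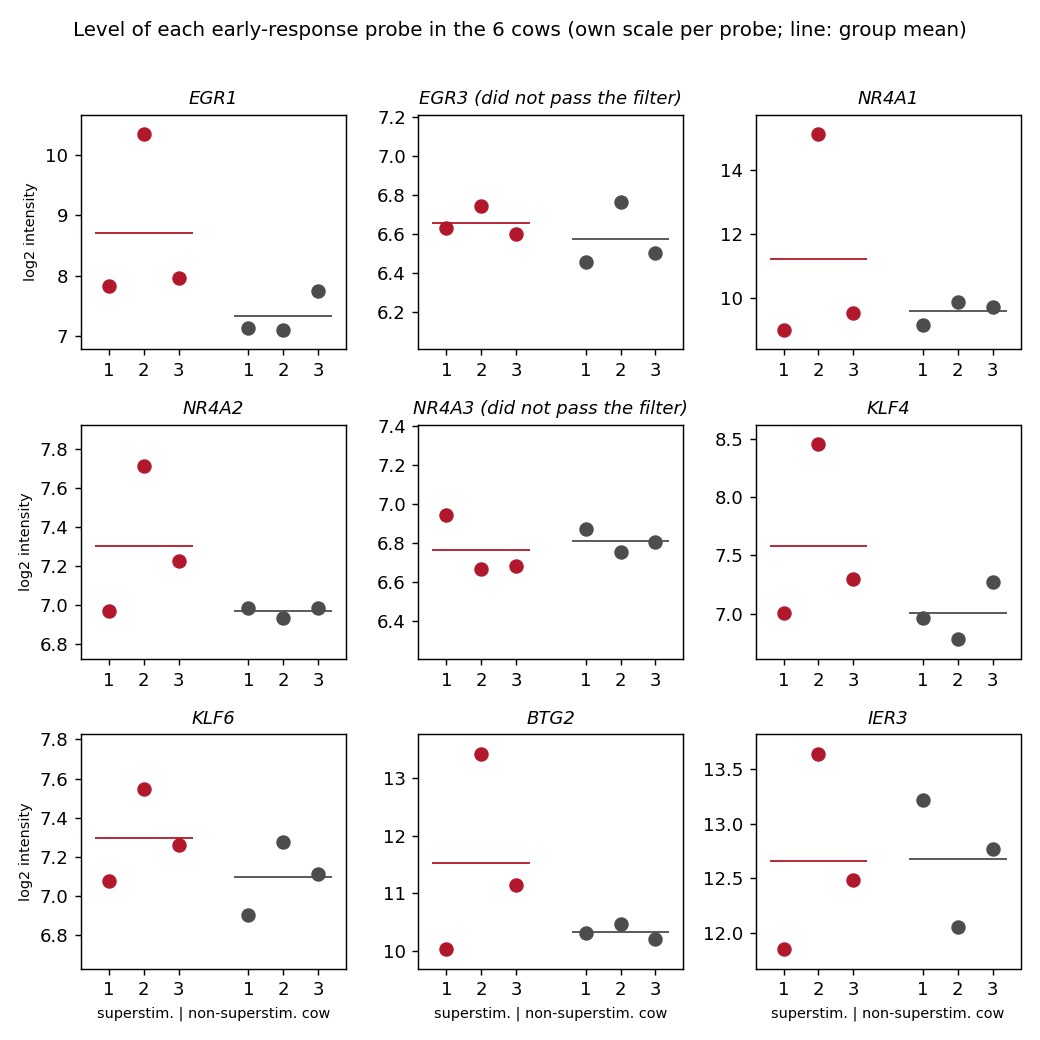
Level of each early-response probe in the 6 cows as log2 intensity, with a scale of its own for each probe. Points are cows 1, 2 and 3 of the superstimulated group (red, left) and of the non-superstimulated group (grey, right), and lines are group means. Superstimulated cow 2 was highest for EGR1, NR4A1, NR4A2, KLF4, KLF6, BTG2 and IER3, and EGR3 and NR4A3 varied by 0.31 and 0.27 over the 6 cows.

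EGR1 is a zinc finger factor that many growth factors and hormones induce, and it was the only 1 of the 7 whose groups did not overlap. Its log2 level was 7.82, 10.34 and 7.96 in superstimulated cows 1, 2 and 3, against 7.14, 7.11 and 7.74 in non-superstimulated cows 1, 2 and 3. Cow 2 of the superstimulated group stood 2.38 above the next cow, while the other 5 cows lay within 0.85 of each other. Groups that do not overlap were found in this direction for 2.54% of all genes, and in the other, with 0 of the 7, for 3.36%. The spot was brighter than the negative controls in both dyes on all 6 arrays, though not by much in the non-superstimulated cows. In non-superstimulated cow 1 its foreground was 171 on array 1 and 152 on array 4, against negative control thresholds of 141 and 140. In cow 2 it was 212 on array 2 and 175 on array 5, against 164 and 155. In cow 3 it was 355 on array 3 and 344 on array 6, against 259 and 300. The log2 ratio of EGR1 was 0.68, 3.23 and 0.22 in pairs 1, 2 and 3, with the 2 arrays of a pair differing by 0.24, 0.06 and 0.11. In the model of 6 arrays, whose error is that of the dye swap, limma called it higher in pair 1 (adjusted p = 0.0048) and in pair 2 (adjusted p = 4.69e-07) but not in pair 3 (adjusted p = 0.09). The call in pair 1 was lost in the authors' deposited table, where the ratio was 0.66 (adjusted p = 0.56). In pair 3 the ratio was 0.36 and called without loess (adjusted p = 0.01), and 0.00075 in the authors' deposited table.

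EGR3, a relative of EGR1 that is induced in the same way in many cells, was close to the background. Its probe was brighter than the negative controls on 0 of 6 arrays in superstimulated cows and on 1 of 6 in non-superstimulated cows. No fold is given for it, and its 6 log2 levels lay between 6.46 and 6.77.

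NR4A1, also known as NUR77, is a nuclear receptor without a known hormone ligand. It had a log2 level of 9.00, 15.13 and 9.52 in superstimulated cows 1, 2 and 3, against 9.15, 9.88 and 9.71 in non-superstimulated cows 1, 2 and 3. Only superstimulated cow 2 was high: it stood 5.25 above the next cow, and the other 5 lay within 0.88, so that the groups overlapped. The ratios were -0.15, 5.25 and -0.20, of which limma called only that in pair 2 (adjusted p = 2.91e-05). The 2 arrays of pair 2 gave 6.28 and 4.22, a difference of 2.06 against 0.59 or less for every other probe and pair of the 9. In the superstimulated channel the spot had a foreground of 32504 on array 2 and 36531 on array 5, which was 82.0% and 92.5% of the brightest spot of that channel. In the other channel it had 569 on array 2 and 2334 on array 5. The scanner tables hold no saturation flag, so whether these spots were saturated is not known. With array 2 or array 5 left out, the fitted ratio of pair 2 was 4.04 or 6.45.

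NR4A2, or NURR1, binds the same kind of DNA element as NR4A1 and was dimmer against the background. It had a log2 level of 6.97, 7.71 and 7.22 in superstimulated cows 1, 2 and 3, against 6.99, 6.93 and 6.98 in non-superstimulated cows 1, 2 and 3. Cow 2 was again the high animal, and superstimulated cow 1 lay among the non-superstimulated cows, which were within 0.06 of each other. The ratio in pair 2 was 0.78 (adjusted p = 0.00032), and those in pairs 1 and 3 were -0.01 and 0.24, neither of which limma called, although that in pair 3 was 0.30 and called with a normexp offset of 16 (adjusted p = 0.047). In the authors' deposited table the ratio in pair 2 was 0.78 but lost its call (adjusted p = 0.12). NR4A2 was brighter than the negative controls on 4 of 6 arrays in superstimulated cows and on 5 in non-superstimulated cows. NR4A3, or NOR1, did so on 1 of 6 arrays in each, and its 6 log2 levels lay between 6.67 and 6.94 with superstimulated cow 2 the lowest.

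KLF4 is a Krüppel-like factor that restrains proliferation in many epithelia. Its log2 level was 7.01, 8.46 and 7.29 in superstimulated cows 1, 2 and 3, against 6.96, 6.78 and 7.27 in non-superstimulated cows 1, 2 and 3. Superstimulated cow 2 stood 1.16 above the next cow, and the other 5 cows lay within 0.52. The ratio in pair 2 was 1.68 (adjusted p = 5.47e-06 by limma), and in pairs 1 and 3 it was 0.05 and 0.03. The spot of non-superstimulated cow 2 was brighter than the negative controls on array 2 but not on array 5. KLF6, which is induced by injury and growth signals in many tissues, differed least. It had a log2 level of 7.07, 7.55 and 7.26 in superstimulated cows 1, 2 and 3, against 6.90, 7.27 and 7.11 in non-superstimulated cows 1, 2 and 3. The ratios of KLF6 were 0.17, 0.28 and 0.15, all above 0 and none called, with an adjusted p of 0.065 in pair 2. That ratio was called without loess (0.28, adjusted p = 0.041) and with an offset of 16 (0.35, adjusted p = 0.045), and the ratio in pair 3 was -0.043 in the authors' deposited table. In red, KLF4 exceeded the negative controls on 2 and KLF6 on 3 of 6 arrays, whereas in green both did so on all 6.

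**Figure D2:**
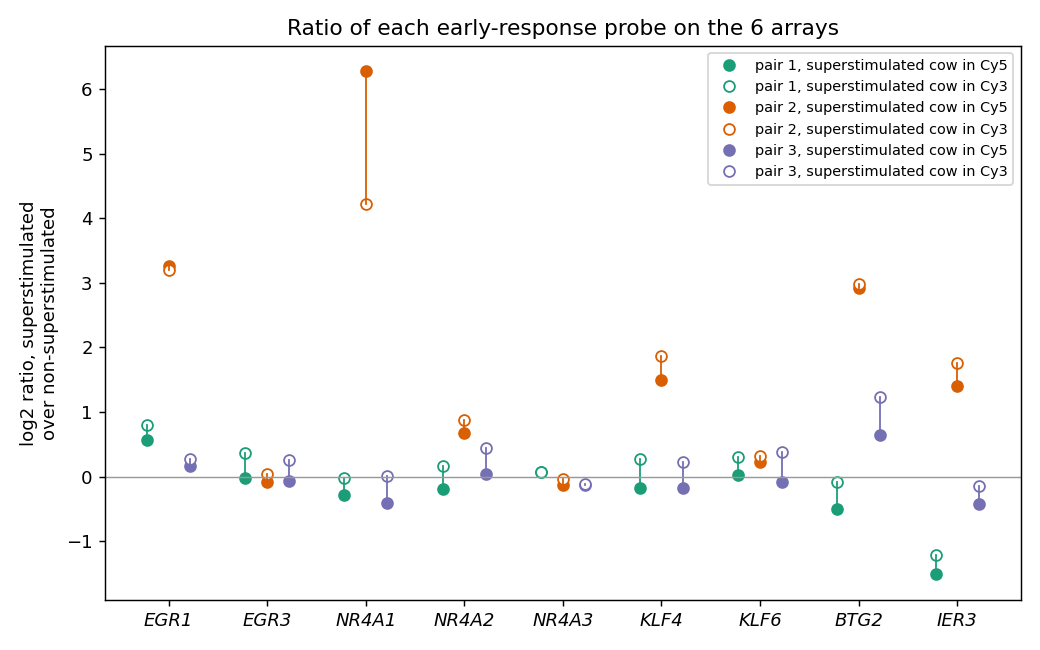
Log2 ratio, superstimulated over non-superstimulated, of the 9 early-response probes on each array. Colours mark the cow pairs, filled points the arrays with the superstimulated cow in Cy5 and open points those with it in Cy3, and a line joins the arrays of a pair. In pair 2 NR4A1 had 6.28 and 4.22, EGR1 3.26 and 3.20 and BTG2 2.92 and 2.98, while IER3 had -1.52 and -1.21 in pair 1.

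BTG2 recruits the enzymes that shorten the poly(A) tails of messenger RNA and slows cell division. Log2 levels were 10.03, 13.42 and 11.14 in superstimulated cows 1, 2 and 3, against 10.32, 10.47 and 10.20 in non-superstimulated cows 1, 2 and 3. Superstimulated cow 2 was 2.28 above superstimulated cow 3, which in turn lay above all 3 non-superstimulated cows, and superstimulated cow 1 was the lowest of the 6. The ratio was higher by limma in pair 2, at 2.95 (adjusted p = 1.38e-06), and in pair 3, at 0.93 (adjusted p = 0.00034), and was -0.29 in pair 1 without a call. In the authors' deposited table the ratio in pair 3 was 0.96 with an adjusted p of 0.0503.

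IER3 encodes a stress-inducible protein that modulates cell death and was the only gene of the 7 called in opposite directions. Its log2 level was 11.85, 13.64 and 12.48 in superstimulated cows 1, 2 and 3, against 13.21, 12.05 and 12.77 in non-superstimulated cows 1, 2 and 3. The highest cow was superstimulated cow 2 and the lowest superstimulated cow 1, and the groups overlapped widely. The ratio was -1.36 in pair 1 (2.57-fold lower, adjusted p = 0.00019 by limma), 1.59 in pair 2 (3.01-fold higher, adjusted p = 7.21e-06) and -0.29 in pair 3 (adjusted p = 0.027). In the authors' deposited table the negative ratios of pairs 1 and 3 were -1.28 and -0.22 and lost their calls (adjusted p = 0.068 and 0.73). Without loess the ratio of pair 3 was 0.011 and not called (adjusted p = 0.95).

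Over the 3 pairs, no early-response gene passed an adjusted p of 0.05 by limma, as was so for 0% of all genes. At an unadjusted p under 0.05 there were 0 of the 7, against 3.6% of all genes. On the log2 scale NR4A1 averaged 1.63 ± 3.13 (SD, n = 3 pairs), with a 95% interval from -2.60 to 5.86. EGR1 had 1.38 ± 1.62 with an interval from -0.82 to 3.58 and the same sign on all 6 arrays (adjusted p = 0.995). In the authors' deposited table its sign was not the same throughout, with -0.59 on array 3 and 0.60 on array 6. BTG2 had 1.20 ± 1.64, KLF4 0.58 ± 0.95, NR4A2 0.33 ± 0.40 and KLF6 0.20 ± 0.07. KLF6 varied least, its interval running from -0.05 to 0.45. IER3 had -0.02 ± 1.49, and the intervals of BTG2 (-1.02 to 3.42), KLF4 (-0.72 to 1.89), NR4A2 (-0.26 to 0.93) and IER3 (-2.05 to 2.01) also included 0. EGR1, KLF4 and KLF6 were higher in all 3 pairs, as were 9.89% of all genes, and 0 of the 7 were lower in all 3, as were 13.1%, although KLF4 had opposite signs on the 2 arrays of pairs 1 and 3. In pair 3 KLF4 and KLF6 had ratios of -0.24 and -0.043 in the authors' deposited table, and KLF4 had -0.017 without loess. A term for dye, which cannot be told apart from slide, was called by limma for NR4A2, KLF4 and IER3, against 35.1% of all probes. Without pair 2 the mean ratio of NR4A1 was -0.17, that of EGR1 0.45, of BTG2 0.32 and of KLF4 0.036.

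The ratio differed between the 3 pairs for 6 of the 7 genes, against 51.1% of all genes, by limma's moderated F test with the error of the dye swap. The ratios differed for 5 of the 7 in the authors' deposited table, against 17.3% of all genes. The error of the dye swap is technical and does not hold the spread between cows. KLF6 was the gene without a call (adjusted p = 0.71), and the others had adjusted p-values from 5.29e-06 for IER3 to 0.0033 for NR4A2. Without pair 2 only EGR1, BTG2 and IER3 still differed, against 41.7% of all genes. Pair 2 was called higher for 6 of the 7 genes and lower for 0, against 13.8% and 21.8% of all genes. In that pair 5 of the 7 were at least 2-fold higher, against 4.45% of all genes, and 0 at least 2-fold lower, against 6.42%. With the dyes of the design text these directions would be exchanged. The ratio in pair 2 stayed above 0 for each of the 7 when array 2 or array 5 was left out. Without loess or with an offset of 16, limma called all 7 higher in pair 2. All genes called there in either direction were 38.5% and 36.7%. In pair 1 EGR1 was called higher and IER3 lower, against 3.83% and 6.92% of all genes, and in pair 3 BTG2 higher and IER3 lower, against 27.3% and 19.6%. The median log2 ratio of the 7 genes was -0.01, 1.68 and 0.15 in pairs 1, 2 and 3, and that of all genes -0.007, -0.02 and -0.01. In the authors' deposited table the ratios in pair 2 were 3.23 for EGR1, 5.46 for NR4A1, 0.78 for NR4A2, 1.57 for KLF4, 0.17 for KLF6, 2.71 for BTG2 and 1.44 for IER3.

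Other early transcription factors were listed beside the early-response genes, and 19 of 27 passed the filter. In pair 2, limma called 10 of the 19 higher and 3 lower, against 13.8% and 21.8% of all genes, with a median log2 ratio of 0.55. Superstimulated cow 2 was the highest animal for 8, against 18.5% of all genes. Pair 1 had 2 higher and 0 lower, against 3.83% and 6.92%, with a median of -0.07. Pair 3 had 5 higher and 8 lower, against 27.3% and 19.6%, with a median of 0.07. FOS, a component of the AP-1 factor, had ratios of 1.40, 4.87 and 2.37, all called higher, although its other probe lay at 0.013 in pair 2. ATF3, a stress-inducible factor of the CREB family, had -0.20, 4.56 and 0.08, and NFIL3, a basic leucine zipper repressor, had -0.26, 1.84 and 0.93. Against these, ID3, an inhibitor of helix-loop-helix factors, had 0.15, -4.03 and -1.02, with 3 other probes at -1.03, -0.32 and 0.0095 in pair 2. KLF11, a relative of KLF4, had -0.20, -0.85 and -0.51, and its other probe 0.006 in pair 2. No probe of JUN passed the filter.

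Feedback regulators and other early genes were measured for 27 of 29. In pair 2, 18 of the 27 were called higher and 3 lower by limma, against 13.8% and 21.8% of all genes, with a median log2 ratio of 0.81. Superstimulated cow 2 was the highest animal for 14, against 18.5%. Pair 1 had 3 higher and 5 lower, against 3.83% and 6.92%, with a median of -0.04. Pair 3 had 14 higher and 6 lower, against 27.3% and 19.6%, with a median of 0.28. DUSP1, a phosphatase that switches off MAP kinases, had 0.07, 2.56 and 1.05. MCL1, a short-lived survival protein of the BCL2 family, had -0.05, 1.88 and 1.16, and its other 2 probes 2.16 and 0.81 in pair 2. SGK1, a hormone-induced kinase, had 0.13, 0.81 and 0.84, and TOB1, an antiproliferative relative of BTG2, had 0.40, 0.60 and 1.13, called higher in each pair. GADD45G, a stress-response gene, had -0.17, -1.94 and -0.79. NAB2, which binds EGR factors and represses their activity, had -0.03, 0.06 and -0.24 and was called in no pair.

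Of the upstream activators, 13 of 19 were measured, and in pair 2 limma called 4 higher and 2 lower, against 13.8% and 21.8% of all genes, with a median log2 ratio of 0.03. Pair 1 had 0 called either way, against 3.83% higher and 6.92% lower, and pair 3 had 6 higher and 4 lower, against 27.3% and 19.6%. Serum response factor itself, SRF, had ratios of -0.08, 0.28 and 0.20, of which that in pair 2 was called (adjusted p = 0.04 by limma). MAP2K1, the kinase that activates ERK, had -0.06, 1.25 and 1.94, and RPS6KA3, a kinase downstream of ERK, had -0.32, 1.59 and 1.64. Of the CREB coactivators, CRTC2 had -0.07, -0.23 and -0.33 and CRTC3 had -0.12, -0.14 and -0.31. Both were called lower in pair 3 alone (adjusted p = 0.026 and 0.025 by limma). A further list held possible targets of EGR or NR4A factors in the ovary or pituitary, whose regulation by these factors was not tested. Its 9 measured genes had 2 higher and 4 lower calls in pair 2, against the same 13.8% and 21.8%, with a median of -0.09. Pair 1 had 0 higher and 3 lower, against 3.83% and 6.92%, with a median of -0.08. Pair 3 had 4 higher and 1 lower, against 27.3% and 19.6%, with a median of 0.25. AREG, an EGF-like ligand of the ovulatory follicle, had -0.08, 5.96 and -0.20, and PGR, the progesterone receptor, 0.11, 4.48 and 0.78. STAR, which brings cholesterol to the mitochondrion and has NR4A sites in other species, had -2.39, 0.22 and -0.37, and INSL3, a theca cell hormone, -0.08, -0.09 and -0.26. Over the 3 pairs, limma called 0 genes of these 4 lists, and at an unadjusted p under 0.05 there were 2 of 19, 2 of 27, 0 of 13 and 0 of 9, against 3.6% of all genes.

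**Figure D3:**
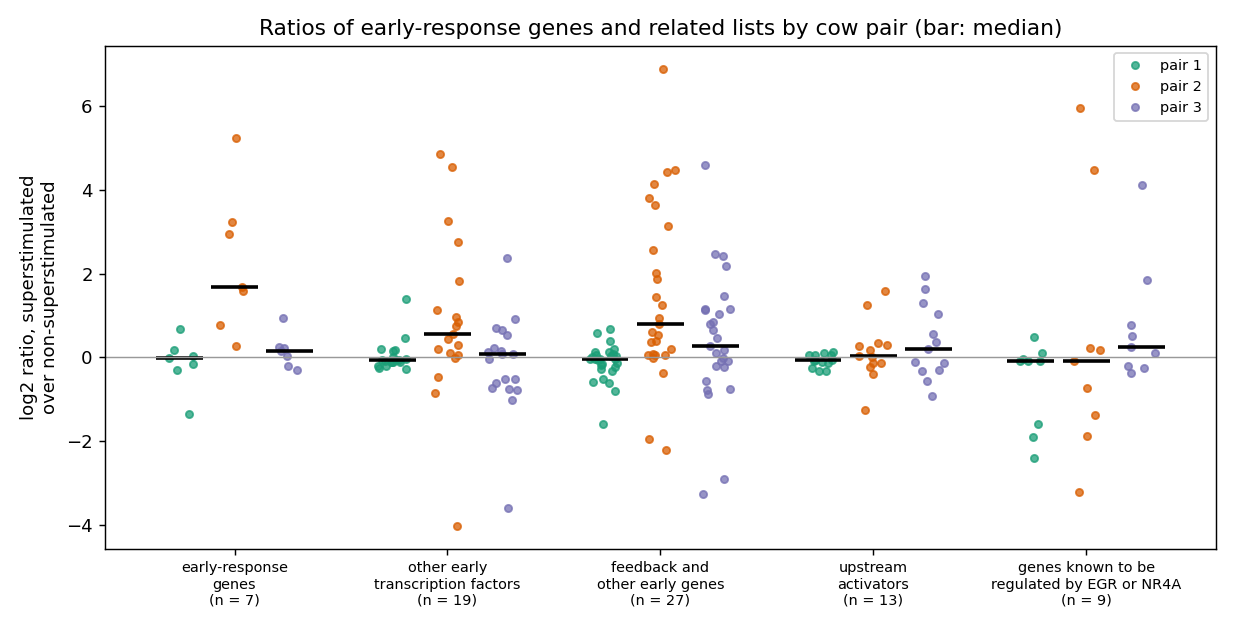
Log2 ratio, superstimulated over non-superstimulated, of the 7 early-response genes that passed the filter and of 4 lists of related genes, by cow pair. Each point is a gene and each bar the median of its list in that pair. The list on the right is labelled as genes known to be regulated by EGR or NR4A. It holds possible targets of these factors, whose regulation by them was not tested. In pair 2 the medians were 1.68, 0.55, 0.81, 0.03 and -0.09, from left to right.

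The genes nearest to EGR1 and NR4A1 were those with the smallest mean absolute difference from them over the 6 array ratios, among 11444 named genes. For EGR1 these were PLEKHA6 at 0.22, LITAF at 0.24 and FOSL1 at 0.30. FOSL1, an AP-1 factor, had ratios of 0.02, 3.26 and 0.07, and its non-superstimulated channel exceeded the negative controls on 1 of 6 arrays. LITAF and PLEKHA6 each had dimmer probes that did not show the pattern as strongly, with 0.09 in pair 2 for LITAF and 0.39 and 1.37 for PLEKHA6. For NR4A1 the nearest were AREG at 0.33, the epithelial keratin KRT8 at 0.39 and the drug efflux pump ABCB1 at 0.40. Their ratios in pair 2 were 5.96, 5.23 and 5.91.

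**Figure D4:**
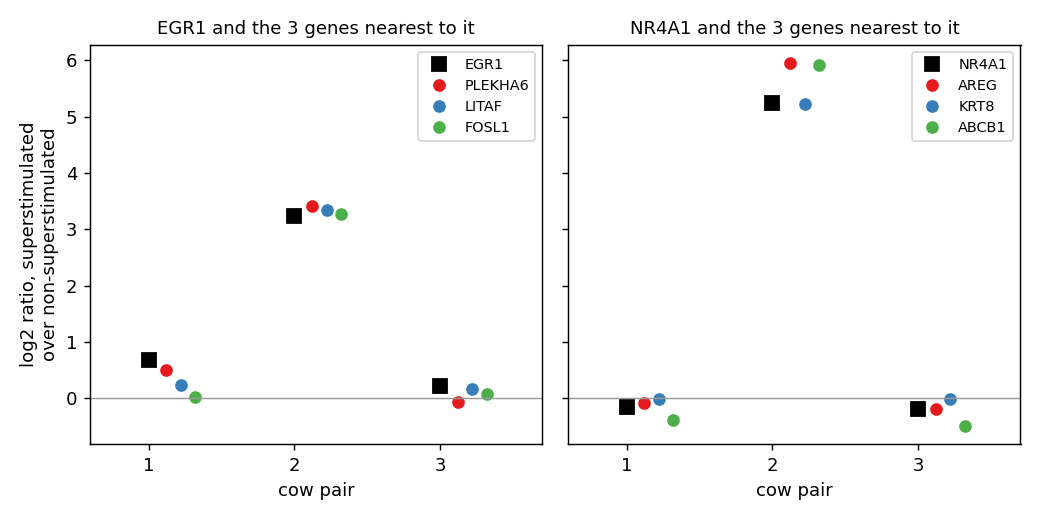
Log2 ratio, superstimulated over non-superstimulated, in the 3 cow pairs for EGR1 (left) and NR4A1 (right), as black squares, and for the 3 genes nearest to each, as coloured points. In pair 2 the genes near EGR1 lay between 3.26 and 3.42 and those near NR4A1 between 5.23 and 5.96.

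Markers of cell types were examined beside these values. Of 6 theca and stroma markers measured, 3 were highest in superstimulated cow 2 (LUM, DCN and CYP17A1), against 18.5% of all genes. CYP17A1 was dim, above the negative controls on 2 of 6 arrays in superstimulated cows and on 3 in non-superstimulated cows. The log2 of the summed level of the 6 markers was 13.20, 14.72 and 14.49 in superstimulated cows 1, 2 and 3, against 12.78, 11.27 and 11.04 in non-superstimulated cows 1, 2 and 3. LUM made up most of the sum in superstimulated cow 2, where it alone had 14.64. In pair 2 LUM and DCN had ratios of 4.02 and 2.30, COL3A1 -0.45, COL1A1 0.13, and the theca markers CYP17A1 and INSL3 0.08 and -0.09. The 6 measured granulosa markers summed to 16.17, 15.71 and 16.07 in superstimulated cows 1, 2 and 3, against 15.95, 16.12 and 15.43 in non-superstimulated cows 1, 2 and 3. In pair 2 CYP19A1 had -1.36, NR5A2 -1.69 and FSHR -0.72, called lower, AMH 0.49, called higher, and INHA -0.29 and INHBA -0.16, not called. The other 2 probes of NR5A2 had -0.11 and -0.091 there, and of the 3 probes of CYP19A1 only the brightest is given. Each of the 6 was brighter than the negative controls in both dyes on every array. Leukocyte markers, 3 measured of 6, summed to 11.46, 11.46 and 11.64 in superstimulated cows 1, 2 and 3, against 11.26, 11.42 and 12.59 in non-superstimulated cows 1, 2 and 3. PTPRC made up most of these sums. In pair 2 PTPRC had 0.004, CD3E -0.009 and CD68 0.67, and limma called only CD68 (adjusted p = 0.0039). CD68 was highest in superstimulated cow 2. It was dim, above the negative controls on 4 of 6 arrays in superstimulated cows and on 3 in non-superstimulated cows. Of the endothelial markers, 0 of 4 exceeded the negative controls on all arrays, as did 0 of 3 red cell and 0 of 2 oocyte markers. Their sums over the 6 cows ran from 9.01 to 9.31, from 8.42 to 8.60 and from 8.17 to 8.28. The part of these markers in the early-response ratios was not tested.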

How the data were processed

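Per the file headers, the deposited values are the intensity of each spot and of its local background, with nothing subtracted. Per the labels' protocols, Trizol-extracted RNA went through 2 rounds of T7 amplification and chemical labelling with Cy3 and Cy5. The authors' deposited log2 values served as an alternative. Nothing in the sources used here states their normalization. They followed red over green of the same array (r across probes 0.739 to 0.868, at most 0.335 with another array), with column medians from -0.035 to -0.0043.

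Of 45220 spots, 8 unnamed and 42 ignored ones were left out. Foreground means and background medians were corrected with normexp (offset 50) and normalized by loess within arrays, with control spots at weight 0. The 31957 probes kept exceeded, on 3 or more arrays and in either dye, the 95th percentile of the 756 negative controls. Gene symbols came from the platform annotation, which can be old. Of 21790 probes with a symbol, 20025 matched a RefSeq symbol of the ARS-UCD2.0 assembly, 1524 a synonym and 241 nothing, and 22004 probes had no symbol. The brightest probe stood for a gene. Levels came from separate channels after Aquantile.

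The arrays of a swap share their extracts and were averaged. The 3 pair means were tested against 0 with limma (lmFit, eBayes, Benjamini-Hochberg over all genes). Pair ratios were tested in a 6-array model with terms for the pairs and for dye. R 4.3.3, limma 3.58.1, Python 3.11.15 and matplotlib 3.10.9 were used, and the steps were tested on simulated data. The members, lists and tests were chosen with earlier results of these data known. Named from each list were up to 4 genes with the smallest p, plus FOS, JUN, DUSP1, ATF3, NAB2 and SRF. Unless marked as called, list genes are given as values only. No probe, promoter or protein sequence was used here.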

Additional observations from a re-analysis of the deposited data

Results flagged for a closer look

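The ratios of NR4A2, KLF4 and IER3 differed between the arrays with the superstimulated cow in Cy5 and those with it in Cy3, by limma over all probes. The term added on arrays 1 to 3 and subtracted on arrays 4 to 6 was -0.16 for NR4A2 (adjusted p = 0.046), -0.20 for KLF4 (adjusted p = 0.019) and -0.16 for IER3 (adjusted p = 0.041) on the log2 scale. Such a term was called for 35.1% of 31957 probes. Each orientation lay on its own slide, so dye and slide cannot be told apart. Each pair held both orientations, so a term of the same size on both arrays of a pair cancels in its mean. In the authors' deposited table none of the 3 was called (adjusted p = 0.40, 0.28 and 0.48), and without loess IER3 was not called (adjusted p = 0.17).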

How the results depend on the processing

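Over the 3 pairs, 0 of the 7 early-response genes passed under each alternative tried. Of 188 values of early-response genes under other settings, not counting the exchanged dyes, 163 had the same sign and the same side of the threshold. That count includes settings that change only the filter, the test or the probes averaged. There the mean ratio of each early-response gene stayed the same, so its sign could not change. With the dyes of the design text the mean log2 ratios would be -1.38 for EGR1, -1.63 for NR4A1, -0.33 for NR4A2, -0.58 for KLF4, -0.20 for KLF6, -1.20 for BTG2 and 0.022 for IER3. IER3 had 0.13 on the swapped slide alone. Without a pair the means ran from 0.45 to 1.96 for EGR1, -0.17 to 2.55 for NR4A1 and 0.32 to 1.94 for BTG2. They ran from 0.036 to 0.86 for KLF4, 0.11 to 0.51 for NR4A2, 0.16 to 0.22 for KLF6 and -0.83 to 0.65 for IER3. The ratio differed between the remaining pairs for 6, 3 and 6 of the 7 genes without pairs 1, 2 and 3. The shares of all genes were 38.3%, 41.7% and 42.1%. With the cow pair as a random replicate block, 0 early-response genes and 1 gene of the whole array, RAB15, passed, and the same gene passed with 6 arrays taken as independent; it was named after its value was seen. The unpaired fit gave 0 and 0. Deviations of same-numbered cows from their groups correlated across genes at 0.177, 0.04 and 0.272, but these cows shared their arrays, so this does not show that the animals were matched. Without loess NR4A2 had 0.031 in pair 1, and NR4A1 0.23, KLF4 -0.017 and IER3 0.011 in pair 3. In the authors' deposited table NR4A2 had 0.29 in pair 1 and -0.11 in pair 3, where KLF4 had -0.24 and KLF6 -0.043. There, of the 7 genes, 0 were called in pair 1, 5 in pair 2 and 0 in pair 3, against 0.713%, 11.4% and 17.1% of all genes. The dye term was called there for 0 of the 7, and the share of all probes is not given. The cause was not tested. Leaving out array 2 or 5, and the settings for the highest cow, were added after seeing the data; that cow was highest for all 7 genes under each. The dim probes of KLF4, KLF6 and NR4A2 and the dim non-superstimulated spots of EGR1 limit the size of ratio that can be seen. The offset of 50 pulls such ratios toward 0. With an offset of 16 the ratios in pair 2 were 3.59 for EGR1, 2.07 for KLF4, 1.00 for NR4A2 and 0.35 for KLF6.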

Other observations

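Several genes of the lists above, named here after their values were seen, differed widely between the cow pairs. PLK2, a stress-inducible kinase, had the largest ratio of these lists in pair 2, at 6.90 on the log2 scale. It had a log2 level of 7.09, 14.23 and 7.45 in superstimulated cows 1, 2 and 3, against 7.13, 7.33 and 7.27 in non-superstimulated cows 1, 2 and 3. CCN2, a matricellular protein, had ratios of 0.58, 4.47 and -0.01 in pairs 1, 2 and 3. RGS2, which restrains G protein signalling, had -1.59, 4.44 and 4.60, and TRIB1, a pseudokinase, -0.53, 4.14 and 2.43. GADD45A, a DNA damage response gene, had -0.23, 3.14 and -3.25, and the factor MYC -0.12, 0.29 and -3.61. None of these genes passed over the 3 pairs by limma, where their adjusted p was 0.995 or 0.998, and the differences between pairs rest on 1 cow of each group per pair. RGS2, TRIB1 and GADD45A had 2, 3 and 2 probes past the filter, and only the brightest of each is given.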
